A study of Mus musculus with 8 samples.

Results

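MHC class I and its peptide loading machinery were followed in mouse CD8+ T cells through 10 genes taken by symbol from the count tables, out of 48321 symbols listed there. The 10 genes were the heavy chains *H2-K1*, *H2-D1*, *H2-Q7* and *H2-T23*, the light chain *B2m*, the peptide transporter subunits *Tap1* and *Tap2*, the bridging factor *Tapbp*, the peptide trimming enzyme *Erap1* and the transcriptional regulator *Nlrc5*. All 10 had at least 180 counts in every library and passed the filter on low counts. RNA was sequenced from sorted splenic CD8+ T cells of C57BL/6 mice labelled WT or KO at day 0 and at day 5 of culture, with 2 libraries in each of the 4 groups. The series gives the mice as *Satb1* F/F; E8I-cre, in which the recombinase is driven from a CD8 lineage enhancer. The labels do not state whether WT animals carried the floxed alleles, how the cells were stimulated, or whether libraries came from separate mice, so the spread between the 2 libraries of a group may be technical. Bulk RNA cannot tell fewer cells of a type from less RNA per cell.

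MHC class I molecules display short peptides from inside the cell to CD8+ T cells. A heavy chain pairs with beta-2-microglobulin in the endoplasmic reticulum, where the TAP transporter delivers peptides cut by the proteasome, tapasin holds the empty molecule next to the transporter, and ERAP1 trims peptides to fit. NLRC5 acts with the RFX factors at the promoters of many of these genes, and T lymphocytes are among the cells in which its contribution to class I expression is known to be large.

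Heavy chain genes are close copies of each other, which bears on how 50 base reads were counted. The longest run of identical coding sequence was 91 bases between *H2-K1* and *H2-D1*, 91 bases between *H2-K1* and *H2-Q7*, 130 bases between *H2-D1* and *H2-Q7*, and 145 bases between *H2-D1* and *H2-T23*. The *H2-K1* and *H2-D1* run is printed with its flanks, 121 bases each within a coding exon and in coding orientation, from GENCODE M21 transcripts on GRCm38, at chr17:33997328-33997448 on the minus strand for *H2-K1* and chr17:35265896-35266016 on the plus strand for *H2-D1*. Capitals mark the 3 positions at which they differ.
H2-K1: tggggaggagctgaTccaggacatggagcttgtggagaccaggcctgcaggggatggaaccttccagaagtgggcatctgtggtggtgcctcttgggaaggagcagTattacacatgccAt
H2-D1: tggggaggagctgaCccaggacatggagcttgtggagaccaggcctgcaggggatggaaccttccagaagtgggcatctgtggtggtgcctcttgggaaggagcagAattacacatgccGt
A read that lies between those capitals has no base that tells the copies apart.

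Over the whole annotated transcripts, 333 of 3457 distinct 50 base windows of *H2-K1* also occurred in another gene, 331 of 2591 for *H2-D1*, 1190 of 4499 for *H2-Q7* and 438 of 3023 for *H2-T23*. The largest share of the *H2-Q7* windows was in common with *H2-Q10*. *B2m* had no such window among 811, and *Nlrc5* had 29 among 8568. For *Tapbp*, *Tap2* and *Erap1* the windows in common lay mainly in overlapping genes: 29.0% of *Tapbp* exon bases overlapped *Gm19412* or *Zbtb22*, 18.5% of *Tap2* exon bases overlapped *Gm15821* or *Gm20496*, and 11.5% of *Erap1* exon bases overlapped *Cast*. *Tap1* and *Psmb9* are divergent neighbours, and 3.87% of *Tap1* exon bases lay inside *Psmb9* exons on the other strand. The strand setting of the counting is not given in the sources used here, so reads from these overlapping stretches cannot be assigned to one strand, and the values of the heavy chains, *Tapbp* and *Tap2* are uncertain to the extent of the sequence in common.

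**Figure D1:**
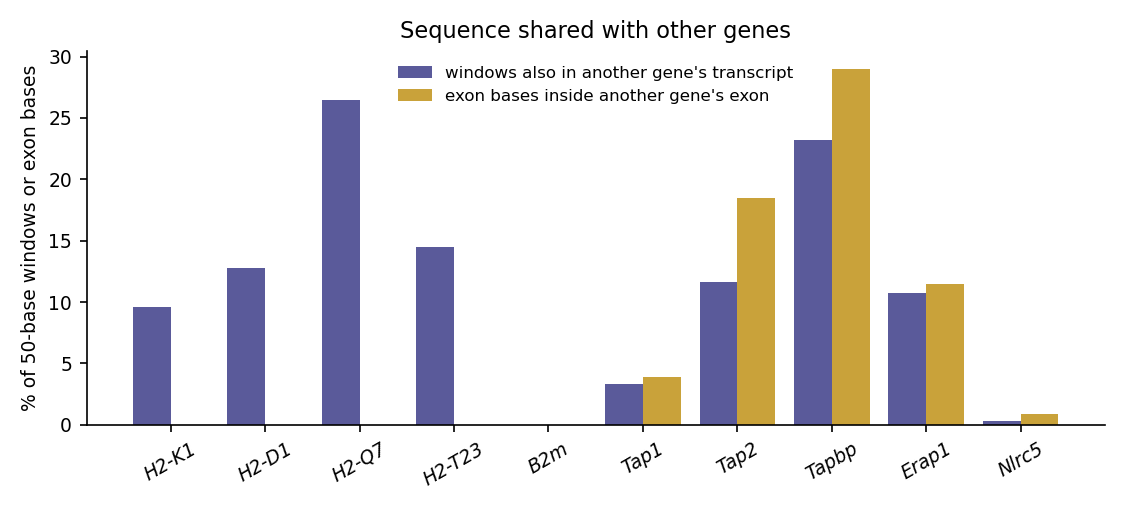
Sequence that each of the 10 genes has in common with other genes, in percent. Blue bars give distinct 50 base windows of the gene's transcripts that also occur in a transcript of another gene, yellow bars give exon bases inside an exon of another gene, and *B2m* has neither while *Tapbp* has 29.0% of exon bases in overlaps.

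Of the members, 7 (*H2-K1*, *H2-D1*, *H2-Q7*, *H2-T23*, *Tap1*, *Tap2* and *Tapbp*) lie on chromosome 17 within 2.12 Mb of the MHC. On GRCm38 these are *Tapbp* at chr17:33915899-33929292 (plus strand), *H2-K1* at chr17:33996017-34000347 (minus), *Tap1* at chr17:34187553-34197225 (plus), *Tap2* at chr17:34203527-34216321 (plus), *H2-D1* at chr17:35262730-35267499 (plus), *H2-Q7* at chr17:35439155-35443773 (plus) and *H2-T23* at chr17:36029773-36032855 (minus). *B2m* lies at chr2:122147686-122153083, *Erap1* at chr13:74639568-74693201 and *Nlrc5* at chr8:94434356-94527272, each on the plus strand.

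Promoters of 8 of the 10 members were in the RefSeq promoter table (GRCm38, 250 bases before to 50 after each start). Class I promoters are known for an upstream enhancer with an NF-kappaB site and an interferon response element, followed by an SXY module that NLRC5 and the RFX complex use, and the parts of the *H2-K1*, *H2-Q7* and *B2m* windows that hold such letters are printed because those genes take part in the changes below. *H2-K1* is chr17:34000349-34000467 on the minus strand, *H2-Q7* is chr17:35439013-35439153 on the plus strand and *B2m* is chr2:122147538-122147648 on the plus strand. Capitals mark, in order, GGGATTCCC (or GAAANNGAA in *B2m*), TGACG and ATTGG, with CCAAT, the other strand of ATTGG, at the end in *H2-Q7*.
H2-K1: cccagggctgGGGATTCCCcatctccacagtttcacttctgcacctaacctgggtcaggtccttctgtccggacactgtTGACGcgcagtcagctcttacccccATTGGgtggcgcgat
H2-Q7: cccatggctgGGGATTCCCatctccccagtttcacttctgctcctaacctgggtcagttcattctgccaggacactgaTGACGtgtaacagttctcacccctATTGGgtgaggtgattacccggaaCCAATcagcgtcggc
B2m: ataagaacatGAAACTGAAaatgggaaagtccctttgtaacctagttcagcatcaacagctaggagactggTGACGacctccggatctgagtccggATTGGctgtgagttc
The *H2-D1* window lies inside an annotated 5′ untranslated stretch of a GENCODE transcript, and 107 of its first 119 bases were identical to those of *H2-K1*.

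On either strand, GGGATTCCC occurred in 0.353% of 32851 mouse promoter windows of this length and, among the 8 members in the table, in those of *H2-K1*, *H2-D1* and *H2-Q7*. GAAANNGAA occurred in 8.56% of all windows and in those of *B2m*, *Erap1* and *H2-T23*. TGACG, the core of the X2 box, occurred in 20.8% of all windows and in those of 5 members (*B2m*, *H2-D1*, *H2-K1*, *H2-Q7* and *Tap1*). ATTGG, an inverted CCAAT box, occurred in 37.4% of all windows and in 7 of the 8 members, all but *Erap1*. In *Erap1* a pair of GAAANNGAA matches overlapped each other, matches of different strings did not overlap in the members, and all of them describe sequence only. Only these exact strings were searched, so a window without a string may still hold another form of that element.

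Gene count totals ranged from 4170126 to 11117971 per library, and KO day 0 replicate 1 was the deepest. *Satb1* itself had the higher values in KO at day 0, against the label: its normalised count was 97.8 and 91.6 CPM (counts scaled to the library total after TMM adjustment) in WT, against 144 and 125 in KO, a difference that did not pass the test (log2 difference 0.51, FDR 0.12). At day 5 it was 96.5 and 116 CPM in WT against 56.5 and 62.3 in KO (FDR 0.016). Counts over the whole gene do not show which exons were read, so KO is used here as the label of the libraries. The 8 CD8 T cell markers summed to 18228 and 18712 CPM in WT and 17334 and 18107 CPM in KO at day 0, and to 12792 and 13689 CPM in WT and 14144 and 14381 CPM in KO at day 5. These sums were lower at day 5, as several members were, and stood higher in WT at day 0 and higher in KO at day 5. At day 5, 6 of the 8 markers had the higher value in KO and 2 the lower (*Cd2*, -0.23, and *Cd3d*, -0.11), and 1 was called, *Cd8a* (log2 difference 0.60 ± 0.11, FDR 0.015). The 3 CD4 T cell markers summed to 1.36 and 3.58 CPM in WT against 6.06 and 6.26 CPM in KO at day 0 and to between 2.65 and 3.22 CPM at day 5; *Cd4* had 7 counts or less in each library, and *Cd40lg* had 9 and 5 counts in WT against 66 and 21 in KO at day 0 (log2 difference 1.79 ± 0.52, FDR 0.13). *Zbtb7b*, the other marker of that list, had 11 and 0 counts in WT against 0 and 7 in KO at day 0, so the higher KO sum lay mostly in *Cd40lg*. The 4 NK cell markers summed to between 0.77 and 2.15 CPM at day 0, and to 1.45 and 1.59 CPM in WT and 0.55 and 0.95 CPM in KO at day 5. The 7 B cell markers used here summed to between 2043 and 2446 CPM at day 0, and to 1460 and 1469 CPM in WT and 1588 and 1639 CPM in KO at day 5, most of it *Ighm* (between 5811 and 22139 counts per library) and next *Cd79b* (between 285 and 1648), while *Ms4a1* had 2 counts or less. The 10 myeloid and dendritic markers summed to between 22.9 and 34.3 CPM at day 0, and to 39.0 and 48.9 CPM in WT and 58.9 and 80.4 CPM in KO at day 5, most of the latter *Cd68*. In culture *Cd68* was called higher in both genotypes, while *Csf1r* and *Itgam* in WT and *Csf1r* and *Zbtb46* in KO were called lower. The part of these in the results was not tested.

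*B2m* was by far the most abundant member, and the order of the genes behind it was much the same in the 4 groups. It ranked between 2 and 6 among all genes by counts in the 8 libraries, and all 10 members together took between 0.909% and 1.19% of counts. Per kilobase of exon, the level in WT at day 0 was 6756 ± 984 CPM per kb (SD, n = 2) for *B2m*, 785 ± 26.8 for *H2-K1*, 235 ± 20.5 for *Tapbp* and 103 ± 4.42 for *H2-D1*. *Tap2* (54.9 ± 4.62), *Erap1* (42.5 ± 0.530), *H2-Q7* (34.1 ± 0.266), *Tap1* (31.1 ± 0.177), *Nlrc5* (25.6 ± 1.12) and *H2-T23* (19.6 ± 0.384 CPM per kb) followed, and no neighbours in that order overlapped between their 2 libraries.

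*B2m* and *H2-K1* kept the first and second place, and *H2-T23* the last, in each of the 4 groups. The length used was that of all annotated exons merged, 4265 bases for *H2-Q7* and 2889 for *H2-T23*, whose coding lengths are 1002 and 1071. Windows in common with other genes were not corrected for, so the order of genes with near levels depends on the length used. In KO at day 0, *Tap2* overlapped *Erap1* and *H2-Q7* overlapped *Nlrc5*. In WT at day 5, *H2-D1* (114 ± 36.7 CPM per kb) stood above *Tapbp* (96.3 ± 2.58) with overlapping libraries, and the neighbours from *Erap1* (47.4 ± 5.0) through *Tap2* and *Tap1* to *H2-Q7* (36.8 ± 0.803) overlapped one by one. In KO at day 5, *Tapbp* again took the third place (142 ± 13.9 CPM per kb), and *H2-Q7*, *Tap1* and *Erap1* overlapped their neighbours.

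**Figure D2:**
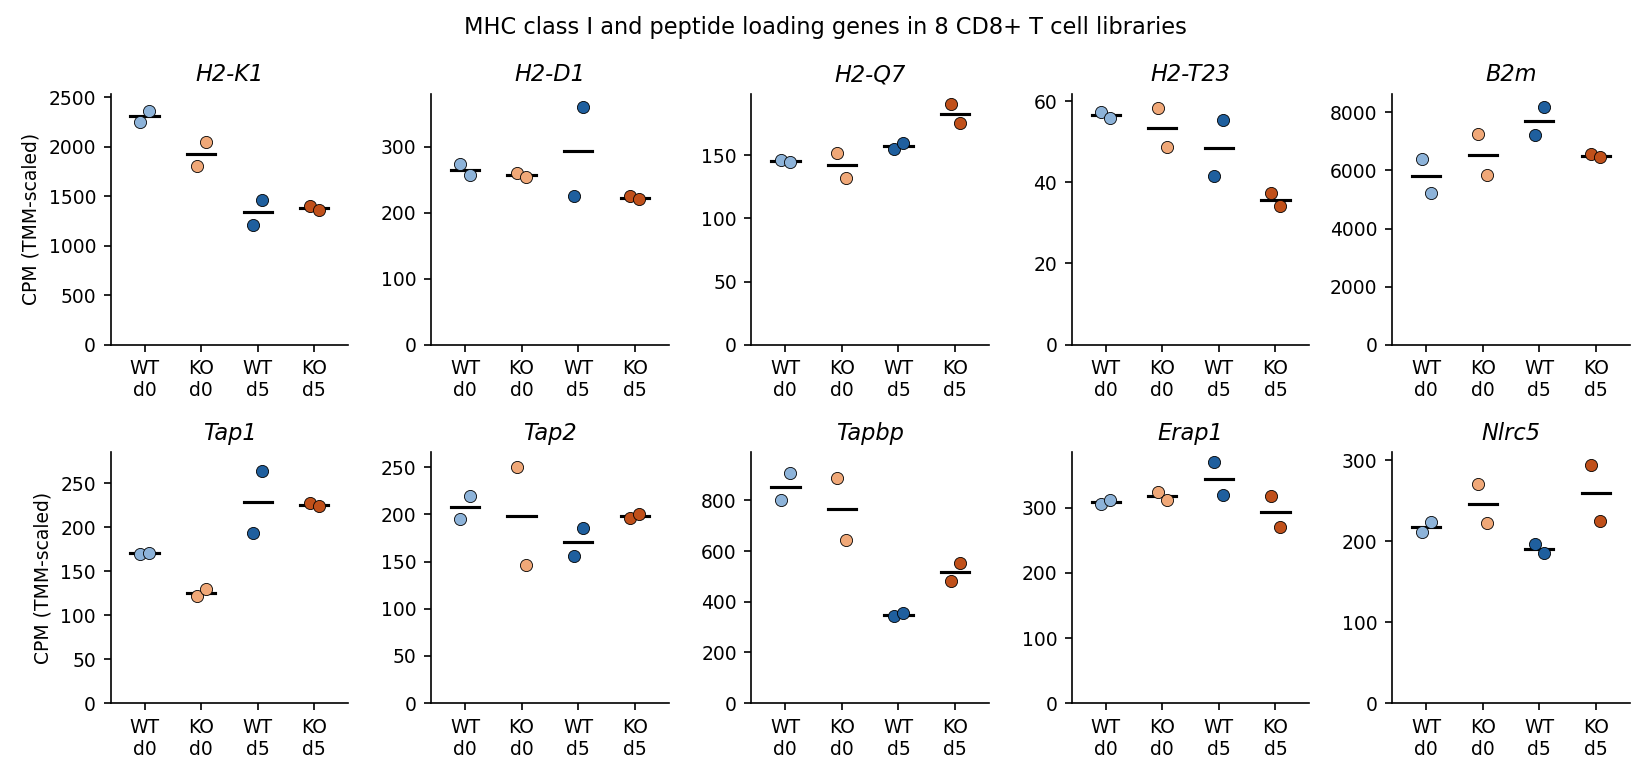
Normalised counts (CPM on TMM-scaled library totals, linear axes from 0) of the 10 genes in 8 libraries, with points for single libraries and bars for the mean of 2. *H2-K1* and *Tapbp* sit lower at day 5 in both genotypes, and *Tap1* sits higher.

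The question of what culture does to these transcripts was asked first within WT. *H2-K1*, which encodes a classical heavy chain, fell in culture in both genotypes. In WT it had 2252 and 2363 CPM at day 0 against 1209.9 and 1464 CPM at day 5. The KO libraries had 1800.4 and 2046 CPM at day 0 against 1404 and 1358 CPM at day 5. Both day 5 libraries were below both day 0 libraries in each genotype. The fall was 1.73-fold in WT (log2 fold change -0.79 ± 0.12 SE, FDR 0.00016) and 1.39-fold in KO (-0.48 ± 0.12, FDR 0.0050) by edgeR's quasi-likelihood test. With the counts of the 4 heavy chains summed into 1 feature, an alternative chosen after seeing the data, the changes were -0.60 and -0.38 (FDR 0.0012 and 0.017).

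*H2-D1* encodes the other classical heavy chain of this strain, and its change in culture did not pass the test. In WT it had 274 and 258 CPM at day 0 against 226 and 360.3 CPM at day 5, so that the day 5 libraries lay on either side of day 0. The values in KO were 261 and 254 CPM at day 0 against 225 and 221 CPM at day 5, with both day 5 libraries below. The log2 change was 0.14 in WT (95% interval -0.24 to 0.52) and -0.21 in KO (-0.59 to 0.17). WT day 5 decided the WT value: without replicate 1 the change was 0.46 (FDR 0.010), and without replicate 2 it was -0.20 (FDR 0.23). In KO an offset for GC content and exon length gave -0.48 (FDR 0.042).

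*H2-Q7* and *H2-T23* encode nonclassical heavy chains, Qa-2 and Qa-1, the latter known as a ligand of NKG2A receptors. *H2-Q7* had 146 and 145 CPM at day 0 in WT against 155 and 159.5 CPM at day 5. In KO it had 152 and 132 CPM at day 0 against 190.2 and 176 CPM at day 5, and no library of a day overlapped the other day in either genotype. The KO rise was 1.29-fold (log2 change 0.36 ± 0.13, FDR 0.028), and the WT value was 0.11 (-0.16 to 0.39, FDR 0.50). The KO call was lost with library totals, without the low-count filter and with the GC and length offset (FDR 0.23, 0.20 and 0.082). It was also lost without KO day 0 replicate 2 (0.27, FDR 0.17) and without KO day 5 replicate 1 (0.32, FDR 0.18) or 2 (0.43, FDR 0.074).

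*H2-T23* was the lowest of the 4 heavy chains. In WT it had 57.4 and 55.8 CPM at day 0 against 41.6 and 55.4 CPM at day 5, and 1 of the day 5 libraries was close to day 0. In KO it had 58.2 and 48.6 CPM at day 0 against 37.3 and 34.1 CPM at day 5, without overlap. The KO fall was 1.5-fold (log2 change -0.59 ± 0.18, FDR 0.017), and the WT value was -0.23 (-0.62 to 0.17, FDR 0.32). Without KO day 0 replicate 1, KO day 5 replicate 1 or KO day 5 replicate 2 the KO change was -0.43, -0.64 and -0.51 (FDR 0.13, 0.064 and 0.13).

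*B2m*, the light chain that every class I molecule needs, rose in WT. It had 6409 and 5211 CPM at day 0 against 7228 and 8202 CPM at day 5 in WT, with no overlap. In KO it had 7245 and 5849 CPM at day 0 against 6557 and 6469.8 CPM at day 5, and the day 5 libraries lay between those of day 0. The WT rise was 1.33-fold (log2 change 0.41 ± 0.13, FDR 0.019) and the KO value was -0.01 (-0.29 to 0.27). The WT call was lost with library totals in place of TMM factors (0.28, FDR 0.088), without WT day 0 replicate 2 (0.27, FDR 0.18) and without WT day 5 replicate 2 (0.35, FDR 0.064).

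*Tap1*, a subunit of the peptide transporter, rose in both genotypes, with the larger value in KO. It had 169.6 and 171 CPM in WT and 121 and 129.6 CPM in KO at day 0. At day 5 it had 193 and 264 CPM in WT and 227 and 224 CPM in KO, above day 0 in each of the 4 libraries. The rise was 1.34-fold in WT (log2 change 0.42 ± 0.15, FDR 0.031) and 1.80-fold in KO (0.85 ± 0.15, FDR 0.00042). In WT the call was lost with library totals (FDR 0.14), without the low-count filter (FDR 0.063) and without WT day 0 replicate 1 (0.43, FDR 0.12) or 2 (0.44, FDR 0.11) or WT day 5 replicate 2 (0.22, FDR 0.20). The KO call held under each of these.

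*Tap2*, the partner subunit, was not called in either genotype. Its level in WT was 195 and 220.0 CPM at day 0 against 156 and 185 CPM at day 5, without overlap. In KO it was 251 and 147 CPM at day 0 against 196 and 201 CPM at day 5, and the day 0 libraries lay on either side. The log2 change was -0.28 in WT (-0.72 to 0.16, FDR 0.27) and -0.01 in KO (-0.44 to 0.43, FDR 0.98). In KO the value without day 0 replicate 1 was 0.45 (FDR 0.052).

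*Tapbp*, which encodes tapasin, fell the most of the 10 genes in WT. In WT it had 801 and 906 CPM at day 0 against 343 and 356 CPM at day 5. KO libraries had 889 and 644 CPM at day 0 against 481 and 552 CPM at day 5. All 4 day 5 libraries were below all 4 day 0 libraries, and the WT day 5 libraries were the lowest. The fall was 2.44-fold in WT (log2 change -1.29 ± 0.15, FDR 2.1e-05) and 1.48-fold in KO (-0.57 ± 0.15, FDR 0.0071). The KO call was lost without KO day 0 replicate 1 (-0.31, FDR 0.13) and without KO day 5 replicate 1 (-0.46, FDR 0.084).

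*Erap1* and *Nlrc5* were not called in culture. *Erap1* had 307 and 312 CPM at day 0 against 371 and 319 CPM at day 5 in WT, and 324 and 311 CPM at day 0 against 318 and 270.4 CPM at day 5 in KO. Its log2 change was 0.16 in WT (-0.12 to 0.43) and -0.11 in KO (-0.38 to 0.16), with the WT days apart and the KO days overlapping. With library totals the KO value was -0.29 (FDR 0.044). *Nlrc5* had 211 and 224 CPM at day 0 against 197 and 185 CPM at day 5 in WT, with day 5 lower in both libraries. In KO it had 270.4 and 222 CPM at day 0 against 294 and 225 CPM at day 5, with overlap. Its log2 change was -0.19 in WT (-0.52 to 0.14) and 0.07 in KO (-0.25 to 0.40), and with the GC and length offset the values were 0.27 (FDR 0.17) and 0.40 (FDR 0.046).

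In all, 4 of the 10 members were called in culture in WT, *H2-K1* and *Tapbp* lower and *B2m* and *Tap1* higher, where 48.3% of the 12597 genes tested were called (3112 higher and 2969 lower). In KO 5 of the 10 were called, *H2-K1*, *H2-T23* and *Tapbp* lower and *H2-Q7* and *Tap1* higher, where 50.2% of genes were called. *H2-K1*, *Tap1* and *Tapbp* were called in both genotypes, each in the same direction. The median log2 change of the 10 members was -0.04 in WT and -0.06 in KO, beside medians of -0.04 and -0.05 over all genes tested. Groups did not overlap for 9 members in WT and 6 in KO, where 73.7% and 77.9% of all genes did not overlap. With library totals in place of TMM factors the median over all genes was -0.17 in WT and -0.23 in KO, and the calls in KO over all genes went from 3296 higher and 3029 lower to 2755 higher and 3936 lower.

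**Figure D3:**
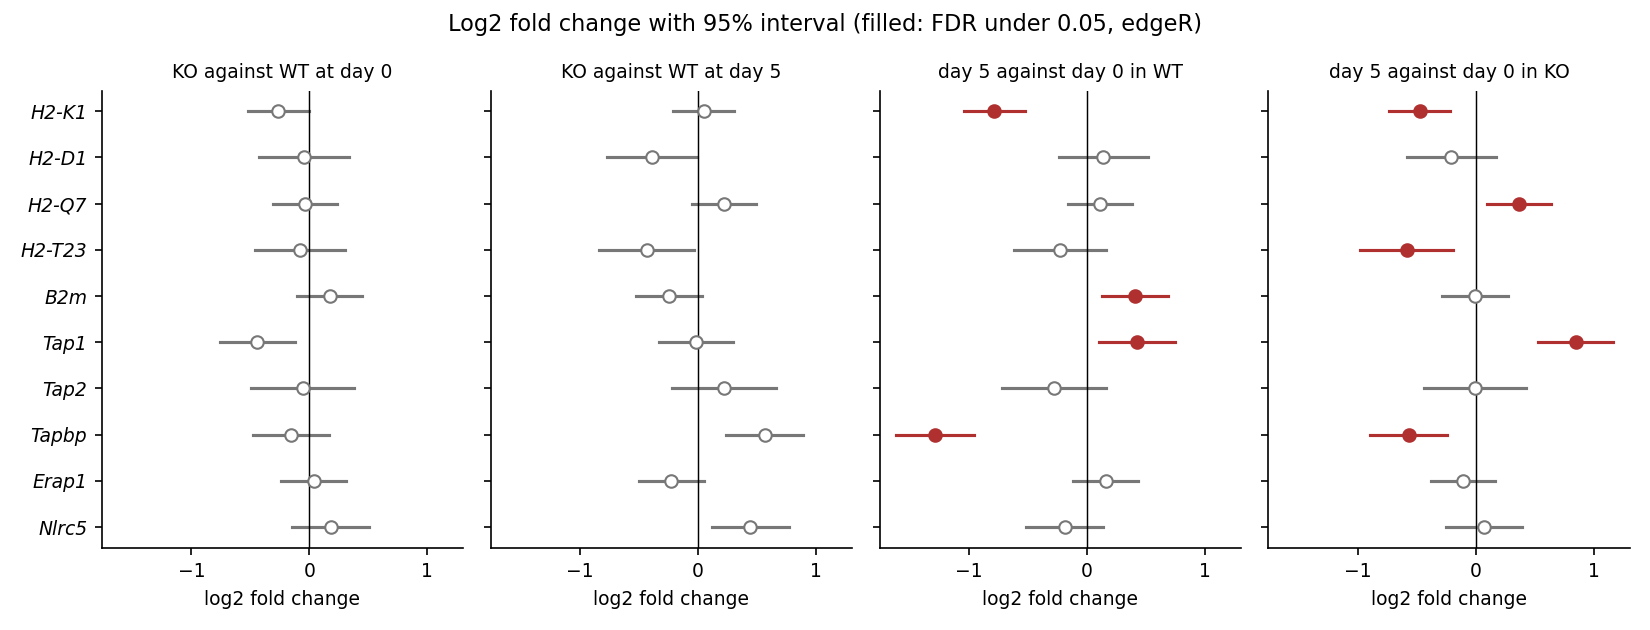
Log2 fold changes of the 10 genes with 95% intervals in 4 comparisons of 2 against 2 libraries from 1 edgeR fit, where filled red points have FDR under 0.05. Filled points appear in the culture comparisons alone, 4 in WT and 5 in KO.

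The comparison of KO with WT asked whether these transcripts differ with the *Satb1* genotype. At day 0 no member passed, where 1.80% of genes were called, and DESeq2 called 0 members. By edgeR, 2 members and 1742 of the 12597 genes tested were at an unadjusted p under 0.05. The summed CD8 T cell markers were lower and the CD4 T cell markers, mostly *Cd40lg*, higher in KO on that day, without overlap, and their part in these values was not tested. The lowest FDR was that of *Tap1*, at 170 ± 0.970 CPM in WT against 126 ± 5.72 CPM in KO (SD, n = 2; log2 difference -0.44 ± 0.15, FDR 0.20). *H2-K1* was the other gene at p under 0.05, at 2307 ± 78.7 CPM in WT against 1923 ± 174 CPM in KO (-0.26 ± 0.12, FDR 0.35). In these 2 genes the KO libraries were below both WT libraries, and in the other 8 the genotypes overlapped; 43.4% of all genes did not overlap. The intervals of the 10 members together spanned log2 differences from -0.76 to 0.51.

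At day 5 no member passed either, where 1.63% of genes were called. The summed CD8 T cell, B cell, and myeloid and dendritic markers given above were also higher in KO on that day and the NK cell markers lower, and their part in these values was not tested. *Tapbp* came closest, at 349 ± 9.35 CPM in WT against 517 ± 50.5 CPM in KO (log2 difference 0.56 ± 0.15, FDR 0.092). It passed with DESeq2 (0.57, FDR 0.018) and without the low-count filter (0.58, FDR 0.0051). Without KO day 0 replicate 1 or KO day 0 replicate 2, which enter this comparison only through the spread and the genes tested, its FDR was 0.045 and 0.043. It did not pass under any other alternative run, where the values ran from 0.35 with the GC and length offset (FDR 0.37) to 0.66 without KO day 5 replicate 1 (FDR 0.20), and the highest FDR was 0.58, without KO day 5 replicate 2 (0.46). *Nlrc5* was at 191 ± 8.19 CPM in WT against 259.5 ± 48.7 CPM in KO (0.44 ± 0.15, FDR 0.18), and the difference was 0.24 without KO day 5 replicate 1 (FDR 0.75) and 0.26 with the GC and length offset (FDR 0.55).

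*H2-T23* and *H2-D1* were the other members at an unadjusted p under 0.05 at day 5, 4 in all, both with the lower value in KO. Of the 12597 genes tested, 1775 had an unadjusted p under 0.05 by edgeR on that day. *H2-T23* was at 48.5 ± 9.76 CPM in WT against 35.7 ± 2.30 CPM in KO (-0.44 ± 0.19, FDR 0.31), and the difference was -0.22 without WT day 5 replicate 2 (FDR 0.73). *H2-D1* was at 293 ± 94.7 CPM in WT against 223 ± 2.83 CPM in KO (-0.39 ± 0.18, FDR 0.34), and WT day 5 decided the value, since the difference was -0.68 without replicate 1 (FDR 0.020) and -0.02 without replicate 2 (FDR 0.97). *B2m* (-0.24, FDR 0.43) and *Erap1* (-0.23, FDR 0.45) also had the lower value in KO, and *H2-Q7* (0.22, FDR 0.47) and *Tap2* (0.22, FDR 0.70) the higher. In 8 of the 10 genes, all but *H2-K1* and *Tap1*, the genotypes did not overlap at day 5, where 45.6% of all genes did not overlap. The intervals of the 10 members spanned log2 differences from -0.84 to 0.89.

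The genotype by day interaction, the KO minus WT log2 difference at day 5 minus that at day 0, tested directly whether culture acted differently on the genotypes. It was called for no member, where 0.159% of genes were called, and DESeq2 called 0 members. By edgeR, 2 members and 1562 of the 12597 genes tested were at an unadjusted p under 0.05. The difference between the *Tapbp* falls was 0.72 ± 0.21 (FDR 0.21), and the difference between the *B2m* changes was -0.42 ± 0.18 (FDR 0.38). For *Tap1* it was 0.42 ± 0.21 (FDR 0.44) and for *H2-K1* 0.31 ± 0.17 (FDR 0.48). *B2m* in WT, and *H2-Q7* and *H2-T23* in KO, were therefore called in 1 genotype without a difference between genotypes that passed the test.

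Ratios of raw counts within a library do not depend on the scaling between libraries. *B2m* had 2.35 and 1.85 counts for each count of the 4 heavy chains in WT at day 0, and 3.19 and 2.36 in KO. At day 5 it had 4.43 and 4.02 in WT and 3.53 and 3.62 in KO, and each day 5 library was above each day 0 library. *Tapbp* had 4.72 and 5.30 counts for each *Tap1* count in WT and 7.32 and 4.97 in KO at day 0, against 1.77 and 1.35 in WT and 2.12 and 2.46 in KO at day 5. In this ratio the days were also apart in each genotype.

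Within the heavy chains, *H2-K1* took between 79.3% and 83.8% of the counts at day 0 and between 71.8% and 75.9% at day 5. The exact binomial 95% interval was 78.8% to 79.8% for the lowest day 0 library (KO replicate 1) and 75.0% to 76.8% for the highest day 5 library (KO replicate 2), and it covers counting error only. *H2-Q7* had 6.50 and 6.12 counts for each 100 *H2-K1* counts in WT and 8.43 and 6.46 in KO at day 0. At day 5 it had 12.8 and 10.9 in WT and 13.5 and 13.0 in KO, so that the 4 day 5 libraries were the highest. *H2-D1* had 12.2 and 10.9 counts for each 100 *H2-K1* counts in WT and 14.5 and 12.4 in KO at day 0, and 18.7 and 24.6 in WT and 16.0 and 16.3 in KO at day 5. *H2-K1* ranked between 27 and 45 among all genes at day 0 and between 75 and 105 at day 5. These ratios are descriptions over libraries that differ in depth.

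**Figure D4:**
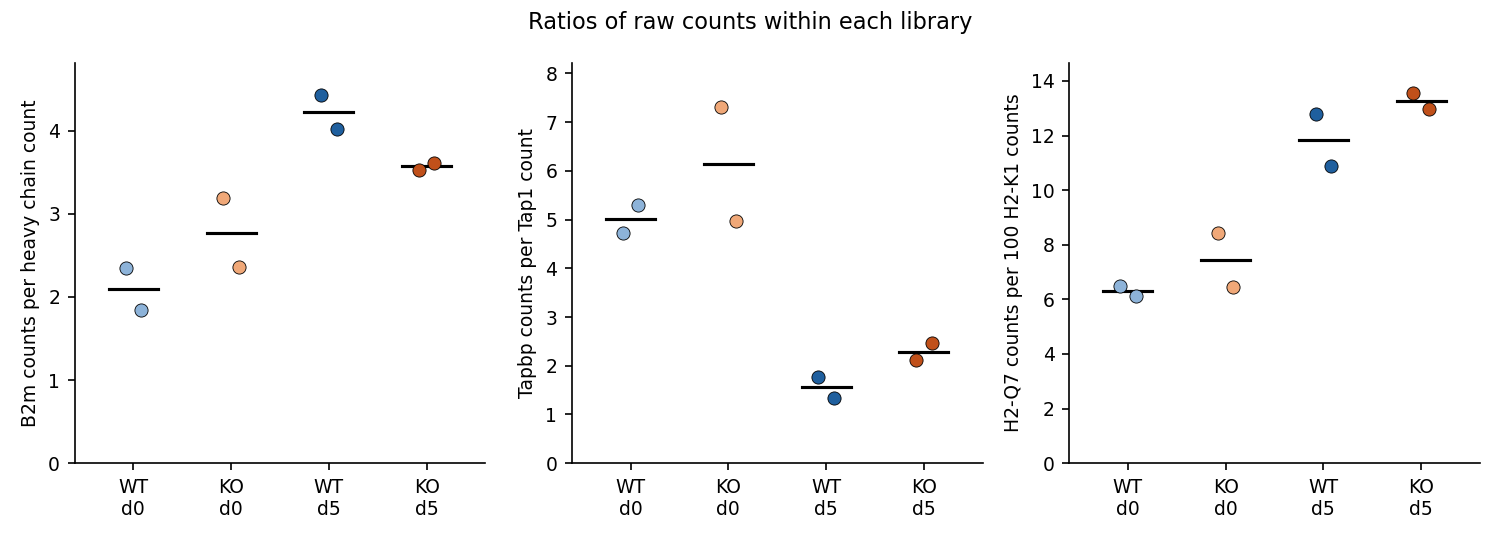
Ratios of raw counts within each of 8 libraries, with points for libraries and bars for the mean of 2, on linear axes from 0. *B2m* per heavy chain count and *H2-Q7* per 100 *H2-K1* counts are higher at day 5 in each genotype, and *Tapbp* per *Tap1* count is lower.

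Genes that supply peptides to the transporter mostly rose in culture. Of 10 tested genes of the proteasome and cytosolic peptidase list, 7 rose and 1 fell in WT, and 6 rose and 1 fell in KO, with a median log2 change of 0.61 and 0.59. That is 80% and 70% called, where 48.3% of all genes tested in WT and 50.2% in KO were called, 3112 and 3296 of them higher, and the medians over all genes were -0.04 and -0.05. The immunoproteasome subunits moved unevenly. *Psmb9*, the neighbour of *Tap1*, had 152 and 137 CPM in WT and 187 and 139 CPM in KO at day 0, against 349.9 and 428 CPM in WT and 306 and 294 CPM in KO at day 5 (log2 change 1.43 ± 0.16 and 0.88 ± 0.16, FDR 1.1e-05 and 0.00048). *Psmb8* had 189 and 225 CPM in WT and 141 and 79.3 CPM in KO at day 0, against 261 and 376 CPM in WT and 268 and 336 CPM in KO at day 5 (0.62 ± 0.24 and 1.45 ± 0.24, FDR 0.048 and 0.00032). *Psmb10*, the third subunit, fell by 0.42 and 0.41 on the log2 scale (FDR 0.027 and 0.029). None of the 10 was called between genotypes on either day, where 1.80% and 1.63% of all genes tested were called. An unadjusted p under 0.05 by edgeR came for 1 and 2 of them, beside 1742 and 1775 of all 12597 genes tested.

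The other chaperones and transport factors of loading were divided. Of 16 genes, 7 rose and 4 fell in WT, and 6 rose and 3 fell in KO, with median log2 changes of 0.15 and 0.31. These calls made up 68.8% and 56.2% of the list, where 48.3% and 50.2% of all genes tested were called. *P4hb*, a protein disulfide isomerase, rose by log2 changes of 1.79 ± 0.12 in WT and 1.92 ± 0.12 in KO (FDR 1.6e-07 and 7.0e-08). *Canx*, the chaperone of newly made heavy chains, rose by 0.88 ± 0.11 and 0.83 ± 0.11. *Calr*, the calreticulin of the loading complex that also holds tapasin, fell by 0.61 and 0.41 on the log2 scale (FDR 0.0078 and 0.049), and *Tapbpl*, the tapasin-related peptide editor, fell by 0.54 and 0.98 (FDR 0.013 and 0.00022). *Tapbp* and *Tapbpl* were thus both lower at day 5 in both genotypes. *Pdia3* of the same list was higher, from 57.6 and 58.1 CPM to 83.2 and 77.4 CPM in WT, where it was called. In KO it went from 37.7 and 50.8 CPM to 59.2 and 55.9 CPM and was not called.

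Of 12 tested other class I heavy chains, out of 18 in the tables, 3 rose and 4 fell in WT, and 1 rose and 3 fell in KO, or 58.3% and 33.3% called beside 48.3% and 50.2% of all genes tested. *Cd1d1*, which presents lipids, had between 146 and 168 CPM at day 0 and between 27.5 and 32.9 CPM at day 5 over the 4 libraries of each day (log2 change -2.37 ± 0.14 and -2.33 ± 0.14), although 489 of its 2565 windows were in common with *Cd1d2*. *H2-T24* fell by 1.49 and 2.19 on the log2 scale, from between 42.1 and 46.6 CPM to between 9.09 and 17.3 CPM. *H2-Q10* was at 0.77 CPM or less at day 0 and between 4.41 and 6.07 CPM at day 5, and 860 of its 4511 windows occurred in other genes, *H2-Q7* among them. *H2-Q6*, with 284 of its 2036 windows in common with *H2-Q7*, did not pass (-0.21 in WT, 0.13 in KO).

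Regulators of class I transcription other than *Nlrc5* moved in both directions in culture. Of 23 genes, 5 rose and 8 fell in WT, and 6 rose and 7 fell in KO, with medians of -0.22 and -0.19 beside -0.04 and -0.05 over all genes. In each genotype 56.5% of the list was called, where 48.3% and 50.2% of all genes tested were called. *Rela*, an NF-kappaB subunit, fell from 76.7 and 75.7 CPM to 29.98 and 28.9 CPM in WT and from 97.0 and 88.8 CPM to 54.4 and 54.7 CPM in KO. *Nfkb1*, another NF-kappaB subunit, rose by log2 changes of 1.07 ± 0.17 in WT and 0.95 ± 0.17 in KO (FDR 0.00023 and 0.00047). *Jak1* and *Irf9*, of interferon signalling, fell in WT (-1.32 and -1.29) and in KO (-1.50 and -1.41). *Ifngr1*, a chain of the interferon gamma receptor, rose in both genotypes (1.77 ± 0.13 and 0.81 ± 0.13).

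Of the 23 regulators, 1 was called between genotypes at day 0 and 3 at day 5, where 1.80% and 1.63% of all genes tested were called. *Ifngr1* was higher in KO at day 0, at 476 and 561 CPM in WT against 1352 and 1127 CPM in KO (log2 difference 1.26 ± 0.13, FDR 0.00028). At day 5, *Stat2* (0.95 ± 0.17, FDR 0.017) and *Rela* (0.89 ± 0.15, FDR 0.012) were higher in KO. *Ifng*, encoding the cytokine, was lower, at 16.0 and 7.95 CPM in WT against 3.13 and 2.08 CPM in KO (-2.21 ± 0.47, FDR 0.043). At day 0 *Ifng* had 0.36 CPM or less in each library.

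**Figure D5:**
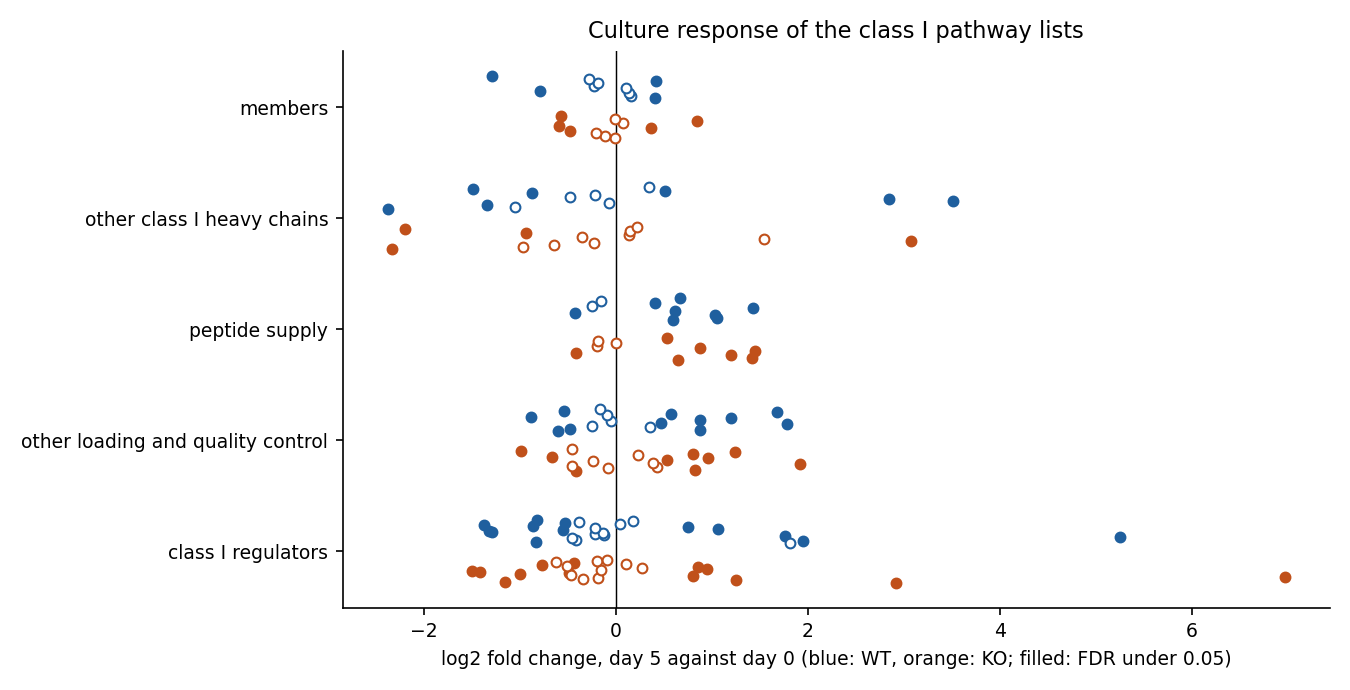
Log2 fold change from day 0 to day 5 for each tested gene of the 10 members and 4 further class I lists, in WT (blue) and KO (orange), with filled points at FDR under 0.05. Of the 10 peptide supply genes, 7 in WT and 6 in KO are filled and right of 0, while the 10 members fall on both sides.

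Between the outermost of the 7 members on chromosome 17, the tables held 197 other annotated genes, of which 88 were tested. In culture 25 of these rose and 27 fell in WT, and 32 rose and 16 fell in KO, 59.1% and 54.5% called, with medians of -0.04 and 0.10, where 48.3% and 50.2% of all genes tested were called. Between genotypes 1 was called at day 0, *Flot1*, which is lower in KO, and 0 at day 5, where 1.80% and 1.63% of all genes tested were called. By edgeR, 10 of the 88 were at an unadjusted p under 0.05 at day 0 and 12 at day 5. Over all 12597 genes tested, 1742 and 1775 were. Of the 7 members in the interval, 3 were called in WT (*H2-K1*, *Tap1* and *Tapbp*) and 5 in KO (those 3, *H2-Q7* and *H2-T23*).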

How the data were processed

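Per the labels, RNA was extracted with Trizol and a Direct-zol kit, libraries were made with the NEBNext Ultra RNA kit and reads of 50 bases were sequenced. The submitters' processing notes name HISAT2 2.1.0, HTSeq 0.11.1 and mm10 (GRCm38). The annotation and strand setting are not given in the sources used here. For each library the authors deposited whole-number counts by gene symbol, without normalization. Between 21.2% and 24.5% of records were assigned to genes. Between 31.8% and 34.5% at day 0, and between 35.7% and 37.4% at day 5, were set aside as not aligned uniquely. Close gene copies were therefore counted only where reads differ between them. The part of this share in the culture changes was not tested.

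Counts were fitted with edgeR 4.0.16 (R 4.3.3) as a quasi-likelihood model with a mean for each of 4 groups over all 8 libraries, TMM factors and the default filter at a minimum count of 10 (12597 genes kept). Variation between libraries of a group beyond counting error came to a common coefficient of 15.0%, and it may be technical. P-values, two-sided, were adjusted over those genes by the Benjamini-Hochberg method (FDR), and genes under 0.05 were called. CPM used TMM-scaled totals. Intervals are 95%, from the standard error and a t quantile at the median total degrees of freedom (12.4). Alternatives were DESeq2 1.42.0 or its size factors, library totals, other filters, only the libraries compared, the replicate block, the edgeR 4 form of the test, thinning to 4170126 counts, a loess correction (span 0.3) for exon length and GC content, entered as an offset, and leaving out each library. The script was tested on simulated data. Positions and transcripts came from GENCODE M21.

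All 10 members are named. In each other list, the 4 called genes with the largest change per comparison could be named, heavy chains and peptide supply genes by their values whether called or not. *Calr*, *Tapbpl*, *Pdia3*, *Nfkb1* and single cell type markers were named after their values were seen. 1 marker of the B cell list is not reported here. The members and lists were chosen with earlier results of these data known.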

Additional observations from a re-analysis of the deposited data

How the results depend on the processing

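No call between genotypes at day 0 and none for the interaction appeared among the members under any alternative run. At day 5, 1 member was called between genotypes with DESeq2 and 1 without the low-count filter (*Tapbp* both times). Leaving out single libraries gave between 0 and 1 there, between 2 and 5 for culture in WT and between 2 and 5 for culture in KO. Library totals gave 2 for culture in WT. Calls for *H2-K1* in both genotypes, *Tapbp* in WT and *Tap1* in KO held under each alternative. Each of the other calls was lost when some single library was left out, as given above. Of 92 values for called members over alternatives that kept all libraries, 86 kept the call, with the summed heavy chains counted under *H2-K1*.

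The replicate block changed none of the 5 counts of called members (0, 0, 4, 5 and 0); deviations of equally numbered libraries were only weakly related between days (Pearson r over genes 0.118 in WT and 0.228 in KO), and the labels do not pair them. With the replicate block the *Tap2* change in KO turned from -0.01 to 0.00264, as it did with thinning to equal depth (0.00357) and with DESeq2 (0.0291) or its size factors (0.0272). Those size factors and DESeq2 also turned *B2m* in KO to 0.0277 each. The GC and length offset turned the day 0 genotype difference of *H2-D1* (0.0738), *H2-Q7* (0.00748), *H2-T23* (0.0194), *Tap2* (0.0303) and *Erap1* (-0.0458), the day 5 difference of *H2-K1* (-0.0749), the culture change of *Nlrc5* in WT (0.27) and *B2m* in KO (0.14), and the *Tap2* interaction (-0.0278). Without the low-count filter *H2-Q7* at day 0 was 0.00700, with library totals *H2-Q7* in WT was -0.0241 and *Nlrc5* in KO was -0.11, and with the 4 heavy chains summed the day 5 difference was -0.0104. None of these turned values was past the threshold; the cause was not tested.

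Leaving out single libraries turned the sign of 13 values that were not called. At day 0 between genotypes the ranges were -0.0909 to 0.00486 for *H2-D1*, -0.14 to 0.0931 for *H2-Q7*, -0.23 to 0.0727 for *H2-T23*, -0.50 to 0.30 for *Tap2* and -0.41 to 0.0917 for *Tapbp*; at day 5, -0.0760 to 0.19 for *H2-K1* and -0.22 to 0.22 for *Tap1*. In culture they were -0.20 to 0.46 for *H2-D1* in WT and, in KO, -0.16 to 0.17 for *B2m*, -0.34 to 0.45 for *Tap2*, -0.22 to 0.0133 for *Erap1* and -0.12 to 0.26 for *Nlrc5*. The *Tap2* interaction ranged from -0.10 to 0.72.

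Over all genes, calls between genotypes at day 0 numbered 227, against 434 without the low-count filter and 38 to 276 without single libraries. At day 5 they numbered 205, against 418 without the filter, 350 with DESeq2, 134 with the offset and 32 to 249 without single libraries. The interaction had 20, against 154, 144 and 13 in the same order and 0 to 41 without single libraries. With a library left out, 1 group holds a lone library that is assumed to vary like the others.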

Other observations

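Class II presentation genes, which mouse T cells are not known to use for display, changed in a mixed way. Of 8 tested genes, 5 rose and 3 fell in each genotype, where 48.3% of all genes tested in WT and 50.2% in KO were called. *H2-Ab1*, the beta chain of I-A, had 1.25 CPM or less at day 0 and 150 and 133 CPM in WT and 144 and 186 CPM in KO at day 5. *H2-Aa*, its partner chain, had between 1.63 and 4.77 CPM at day 0 and 0.24 CPM or less at day 5. *Cd74*, the invariant chain, had between 15.6 and 35.8 CPM at day 0 and between 3.79 and 7.54 CPM at day 5. *H2-DMb2*, a chain of the class II peptide editor, had 2.02 CPM or less at day 0 and between 32.8 and 55.5 CPM at day 5. Among the B cell markers, *Ms4a1* had 2 counts or less in each library and *Cd79a*, *Pax5*, *Ebf1* and *Blk* 20 or less. *Cd79b* had between 285 and 1648 counts and *Ighm* between 5811 and 22139. In both genotypes *Cd79b*, *Ighm* and the myeloid marker *Csf1r* were called lower in culture, and the myeloid marker *Cd68* higher. The part of these markers in the class II values was not tested. None of the 8 was called between genotypes on either day, where 1.80% and 1.63% of all genes tested were called. An unadjusted p under 0.05 by edgeR came for 2 and 1 of them, beside 1742 and 1775 of all 12597 genes tested.

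Over the 8 libraries, the genes whose log2 CPM was most like that of *Nlrc5* were *Sgsm2* (Pearson r 0.956), *AI506816* (0.951), *Psen2* (0.899), *Mif4gd* (0.899) and *Vasp* (0.896). For *H2-K1* they were *Gm12107* (0.994), *Cox7a2l* (0.989), *Ddx5* (0.988), *Cd72* (0.988) and *Use1* (0.982). The *H2-K1* values fall into clusters by day, the genes share libraries and depth, and each list is the top of 12597 genes tested, so the correlations are descriptions.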
